A study of Mus musculus with 2 samples.

Results

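The Cyp2c genes encode cytochrome P450 enzymes of the endoplasmic reticulum, and 8 of them are described here: Cyp2c23, Cyp2c29, Cyp2c37, Cyp2c38, Cyp2c50, Cyp2c54, Cyp2c55 and Cyp2c70. They were chosen by name, each represented by the probe set to which the platform annotation gives exactly that symbol, and are 8 of the 18193 genes represented in this way. Their close relative Cyp2c39 is not among them and appears only where a result on its neighbour Cyp2c38 turns on it. All 8 lie on mouse chromosome 19.

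Livers of Yap+/- mice, which are heterozygous for Yap1, the gene of the transcriptional co-activator of the Hippo pathway, were set against livers of Yap+/+ mice. All mice had a C57BL/6 background, were 30 days old and were given no treatment. For each genotype the livers of 5 mice were pooled and the RNA of the pool was measured on 1 Affymetrix expression array, so each value below is a single measurement with no replicate and no error, and no p-value can be given. The sources used here give neither the nature of the Yap allele nor the sex of the mice. In whole liver, fewer cells of a type and less RNA per cell cannot be told apart.

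Cyp2c enzymes insert oxygen into drugs, steroids, retinoids and unsaturated fatty acids, and take the electrons for this from the reductase Por. Several mouse members turn arachidonic acid into epoxides or hydroxy acids that act as lipid signals, and soluble epoxide hydrolase (Ephx2) removes the epoxides. Many are expressed chiefly in hepatocytes around the central vein, and the nuclear receptors CAR (Nr1i3) and PXR (Nr1i2) raise some of them in response to drugs. The liver transcription factor HNF4A also binds and activates Cyp2c promoters.

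In RefSeq's annotation of the GRCm38.p6 build, 7 of the 8 genes sit in a cluster of 14 protein-coding Cyp2c genes between positions 39006940 and 40187286, a stretch of 1.18 Mb. The order of those with a value is Cyp2c55, Cyp2c29, Cyp2c38, Cyp2c37, Cyp2c54, Cyp2c50 and Cyp2c70. Cyp2c23, formerly named Cyp2c44, lies alone at 44005022 to 44029256, 3.82 Mb beyond the end of Cyp2c70. Cyp2c38 spans 39389556 to 39463103 on the minus strand. The annotated interval of Cyp2c39, 39347346 to 39569568 on the plus strand, contains all of it. Cyp2c39 has an outer and an inner annotated start, and the inner one is 47.7 kb from the start of Cyp2c38, the 2 genes pointing away from each other there.

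The arrays agreed closely, with a Pearson's r of 0.996 over 45101 probe sets, which are not independent replicates. A gene was called measured where its log2 values averaged 6 or more, which held for 9299 genes. Their median difference was 0.00, with a robust SD of 0.15, and where a gene had a second measured probe set the 2 differences disagreed with a robust SD of 0.17 over 3406 genes. Yap1 read 9.24 in the Yap+/- pool and 9.40 in the Yap+/+ pool on its brighter probe set. The excess of 3-prime over 5-prime signal of 3 control transcripts was larger in the Yap+/- pool by 0.20 to 0.22 on the log2 scale. Its part in the differences below was not tested. Alb, the albumin gene, read 15.1 on both arrays.

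All 8 Cyp2c genes were measured, each by 1 probe set, so no second probe set of the same gene is available for any of them. Differences are given on the log2 scale as Yap+/- minus Yap+/+. Most members differed little between the pools, with 6 of 8 within 0.2 of no difference. So did most measured genes, of which only 28.5% differed by at least the 0.16 of Cyp2c37, the furthest of these 6. At a threshold of 1.5-fold, which is 0.58 on the log2 scale, 1 member was lower in Yap+/-, Cyp2c38, where 0.645% of all measured genes were lower by as much. None (0 of 8) was higher by 1.5-fold, where 0.699% of measured genes were. At 2-fold, 0 members were lower and 0 higher, against 0.226% and 0.0968% of measured genes. By sign alone 6 members were lower and 2 higher, and their median difference was -0.035, against 0.00 over all measured genes. The share of all measured genes lower or higher by sign was not counted. The count at 1.5-fold rests on Cyp2c38 alone. The threshold of 1.5-fold was chosen because earlier results of these data put the members under 2-fold. The counts at both thresholds are therefore not independent of these values.

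**Figure D1:**
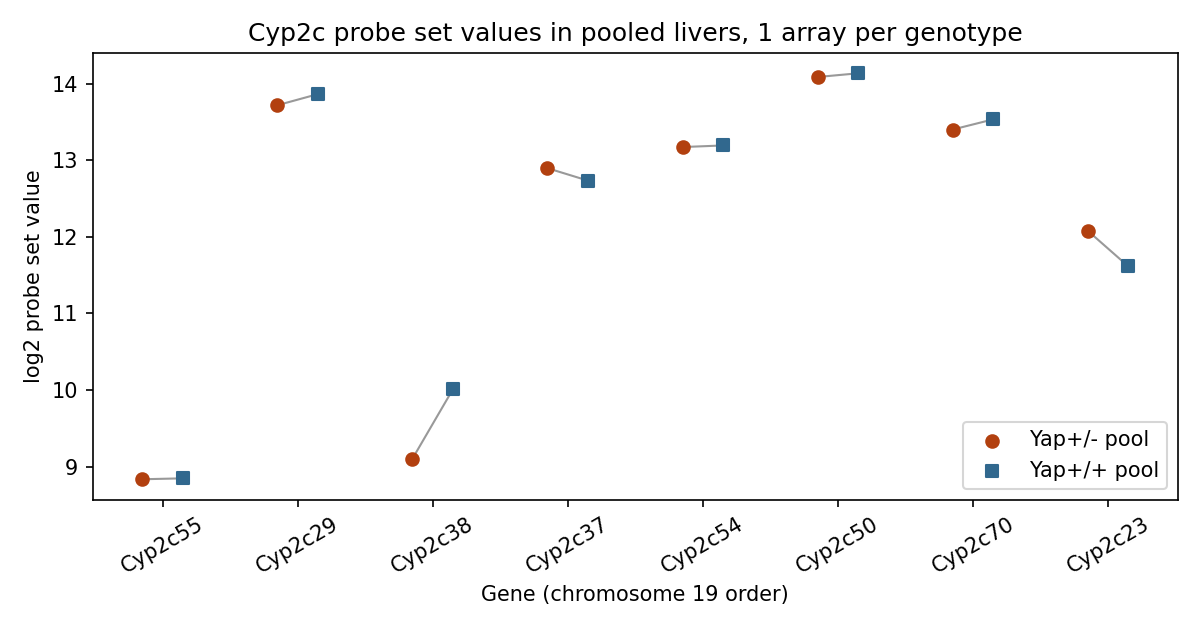
The log2 probe set value of each of the 8 Cyp2c genes in the Yap+/- pool (circles, left of each pair) and the Yap+/+ pool (squares, right), 1 array each. The line of Cyp2c38 is the steepest, with 9.10 in Yap+/- and 10.01 in Yap+/+, and that of Cyp2c23 slopes the other way; levels of different genes are not comparable because their probes differ.

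Cyp2c38, an arachidonic acid epoxygenase, read 9.10 in the Yap+/- pool and 10.01 in the Yap+/+ pool. It was 1.88-fold lower in Yap+/-, with a difference of -0.91, so that the Yap+/- signal was 53.3% of the Yap+/+ signal. Of the 9299 measured genes, 38 differed by at least as much in either direction, which is 0.409% of them, the gene itself included. Around its brightness the robust SD of differences over the 500 nearest measured genes was 0.13. Both values lay well below the highest value of the table, by 6.05 in Yap+/- and 5.14 in Yap+/+.

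The neighbouring Cyp2c39 differed far more. This gene, whose product is known to hydroxylate retinoic acid, read 6.67 in the Yap+/- pool and 11.6 in the Yap+/+ pool on its only probe set, a difference of -4.90. Transcripts of the Cyp2c genes are alike, so a probe set of one gene can also bind RNA of another. Whether the Cyp2c38 probe set read Cyp2c39 transcripts in the Yap+/+ pool was not tested, and the probe sequences were not used here. The 2 genes with the lowest differences of the 11 Cyp2c genes that have a probe set are thus adjacent protein-coding genes. Cyp2c29, the next protein-coding gene on the other side of Cyp2c39, did not follow them.

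The promoters of 6 of the 8 genes were matched in the RefSeq table, all but those of Cyp2c23 and Cyp2c54. Each window runs from 250 bases before the annotated start to 50 bases after it. Printed here, on the gene's own strand, are the promoter of Cyp2c38, at chr19:39463026-39463325, that of the inner start of Cyp2c39, at chr19:39510572-39510871, and that of Cyp2c29, at chr19:39286835-39287134. They are shown because their aligned bases are much alike, while the array values of the 3 genes differed between genotypes by very unequal amounts. Capitals mark matches to CAAAGTNNA, letters of the kind that HNF4A is known to bind in Cyp2c promoters.
Cyp2c38: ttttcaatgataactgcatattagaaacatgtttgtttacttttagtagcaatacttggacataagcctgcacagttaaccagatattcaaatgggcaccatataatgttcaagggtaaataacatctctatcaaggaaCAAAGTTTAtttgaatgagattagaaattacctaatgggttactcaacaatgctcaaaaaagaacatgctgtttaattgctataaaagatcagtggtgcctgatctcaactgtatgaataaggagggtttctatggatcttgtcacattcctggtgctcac
Cyp2c39 inner start: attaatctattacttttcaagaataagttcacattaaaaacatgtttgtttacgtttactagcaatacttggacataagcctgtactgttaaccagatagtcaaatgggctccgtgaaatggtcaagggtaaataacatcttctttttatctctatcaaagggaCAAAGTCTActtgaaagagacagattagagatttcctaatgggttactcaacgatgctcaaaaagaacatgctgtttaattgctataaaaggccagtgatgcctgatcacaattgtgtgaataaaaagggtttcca
Cyp2c29: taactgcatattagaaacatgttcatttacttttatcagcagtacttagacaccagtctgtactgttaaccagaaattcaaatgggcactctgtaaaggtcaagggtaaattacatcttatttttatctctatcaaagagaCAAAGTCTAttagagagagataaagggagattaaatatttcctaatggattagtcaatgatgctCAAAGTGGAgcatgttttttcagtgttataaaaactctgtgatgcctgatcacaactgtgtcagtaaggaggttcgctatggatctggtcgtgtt

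Aligned end to end, the promoter of Cyp2c38 shared 88.2% of 271 aligned bases with that of the inner start of Cyp2c39. With that of Cyp2c29 it shared 82.0% of 278. These shares leave out gaps, of which the 2 alignments had 58 and 44 positions. Cyp2c29 and the inner start of Cyp2c39 shared 80.5% of 277, with 46 gap positions. The least alike pair of the Cyp2c windows compared, Cyp2c29 and Cyp2c70, shared 59.3%, and no unrelated promoters were aligned. Among pairs of members, Cyp2c37 and Cyp2c50 were the most alike, with 89.5% of 295 aligned bases, and Cyp2c29 and Cyp2c38 came next. Cyp2c38 shared 59.9% with Cyp2c70 and 62.5% with Cyp2c55.

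CAAAGTNNA, searched on both strands, was found in 5 of the 6 member promoters and in 4.21% of all 32851 promoter windows of the table. Some member promoters are much alike, Cyp2c37 and Cyp2c50 at 89.5% and Cyp2c29 and Cyp2c38 at 82.0%. Their matches are therefore not independent, and the 2 shares are not a test of enrichment. Cyp2c29, Cyp2c37 and Cyp2c70 held 2 matches each and Cyp2c38 and Cyp2c50 held 1. In Cyp2c38 the match reads CAAAGTTTA and begins at -111 from the start, and Cyp2c29 has CAAAGTCTA at -109. The forkhead letters TGTTTAC were found in Cyp2c38 and at both starts of Cyp2c39 but in no other member promoter, against 3.65% of all windows. GGAATG, the core letters of the site for TEAD, the DNA-binding partner of YAP, were found in 1 of 6 member promoters, that of Cyp2c38. This share is near the background, since 14.7% of all windows hold them. In Cyp2c38 they lie on the strand opposite to the gene's own, at 35 bases past the start. TATAAA was found in Cyp2c55, Cyp2c29, Cyp2c38 and Cyp2c70, against 13.6% of windows. In Cyp2c70 it lies on the strand opposite to the gene's own. These motifs were chosen after the promoters were seen, none overlaps another in these windows, and a match is a match of letters only.

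**Figure D2:**
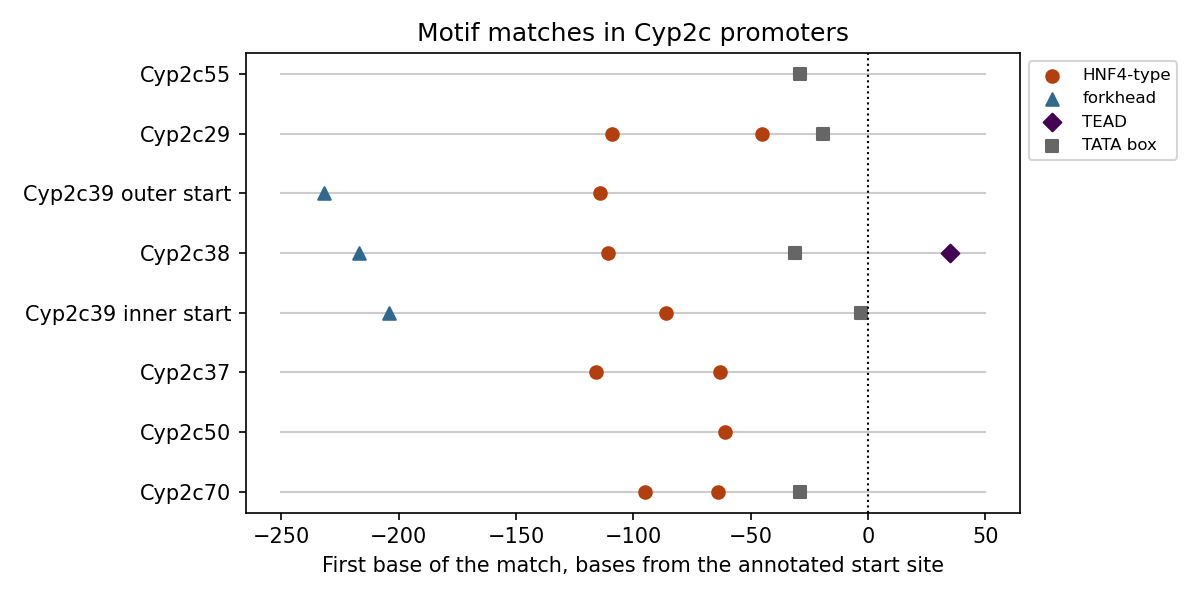
Matches to 4 motifs in the promoter windows of the 6 members with a RefSeq promoter and of both starts of Cyp2c39, by position of the first matched base in bases from the annotated start (dotted line). The HNF4-type letters CAAAGTNNA occur in 5 of 6 member promoters, against 4.21% of all windows, and the TEAD letters in 1 of 6, that of Cyp2c38, a share near the 14.7% of all windows. Some member promoters are much alike, so their matches are not independent.

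Cyp2c29, an epoxygenase of arachidonic acid that phenobarbital raises through CAR, read 13.7 in the Yap+/- pool and 13.9 in the Yap+/+ pool. Its difference was -0.14, or 1.11-fold lower in Yap+/-, and 33.6% of measured genes differed by as much or more. Its values were 1.44 and 1.29 below the top of the scale in Yap+/- and Yap+/+. At this height of the scale array signals can be compressed, and the robust SD over the 500 nearest genes was 0.090. The difference was within the 0.17 by which probe sets of the same gene disagree.

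Cyp2c37, which hydroxylates arachidonic acid and also responds to phenobarbital, read 12.9 in the Yap+/- pool and 12.7 in the Yap+/+ pool. It was 1.12-fold higher in Yap+/-, with a difference of 0.16, and was the only gene of the cluster among the members that was higher. The difference was again within the disagreement of probe sets, though above the robust SD of 0.096 over the 500 nearest genes. Of measured genes 28.5% were as far apart. Its probe set and that of Cyp2c29 thus differed in opposite directions by similar amounts.

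Cyp2c50 and Cyp2c54, neighbouring genes whose enzymes epoxidise arachidonic and linoleic acid, hardly differed. Cyp2c50 read 14.09 in the Yap+/- pool and 14.13 in the Yap+/+ pool, a difference of -0.048. Cyp2c54 read 13.17 in the Yap+/- pool and 13.19 in the Yap+/+ pool, a difference of -0.021. The 2 genes with the most similar promoters among the members, Cyp2c37 and Cyp2c50, differed between genotypes by 0.16 and -0.048. Cyp2c50 was the member closest to the top of the scale, 1.07 below it in Yap+/- and 1.02 below it in Yap+/+, so a difference there could be understated.

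Cyp2c70 makes the muricholic acids, the hydrophilic bile acids of mice, from chenodeoxycholic acid. It read 13.4 in the Yap+/- pool and 13.5 in the Yap+/+ pool. The difference was -0.13, or 1.10-fold lower in Yap+/-. It was within the disagreement of probe sets, though above the robust SD of 0.090 over the 500 nearest genes. Of measured genes 37.4% differed by as much or more.

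Cyp2c55, a hydroxylase of arachidonic acid that ligands of CAR and PXR induce and that is also expressed in the colon, read 8.84 in the Yap+/- pool and 8.85 in the Yap+/+ pool. Its difference of -0.012 was the nearest to 0 of the 8, and 93.4% of measured genes were further apart or equally far. Its values lay 6.32 and 6.30 below the top of the scale in Yap+/- and Yap+/+, far from where signals are compressed.

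Cyp2c23, an arachidonic acid epoxygenase studied mostly in kidney and blood vessels, was the member furthest in the other direction. It read 12.1 in the Yap+/- pool and 11.6 in the Yap+/+ pool. It was 1.38-fold higher in Yap+/-, with a difference of 0.46, which 2.51% of measured genes reached in either direction. This exceeds the robust SD of 0.12 over the 500 nearest genes and stays under the threshold of 1.5-fold. The probe set carries the suffix that Affymetrix gives where its probes are shared by several transcripts, the only one of the 8 to do so, so part of its signal may come from other transcripts. It is also the one member outside the cluster.

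Across the family the differences ran from -0.91 to 0.46, a span of 1.37. The 6 genes other than Cyp2c38 and Cyp2c23 lay between -0.14 and 0.16. Without Cyp2c38 the median of the members was -0.021. Only Cyp2c38 was past the 1.5-fold threshold, at 1.88-fold, and the next furthest member was Cyp2c23 at 1.38-fold.

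**Figure D3:**
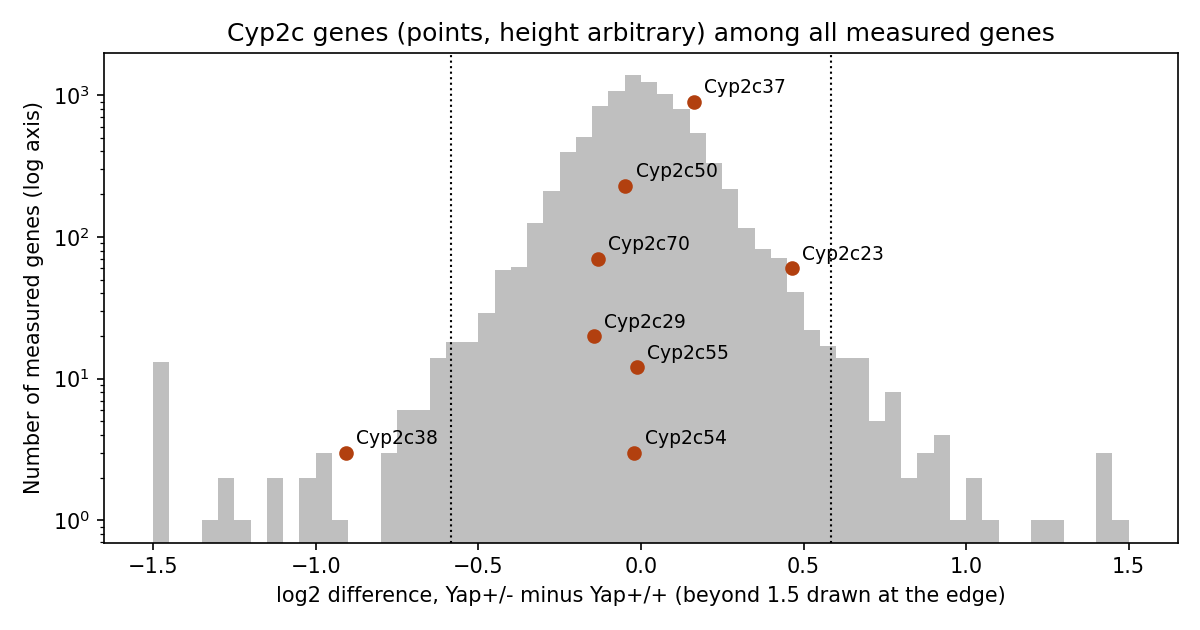
Log2 differences of the 8 Cyp2c genes (points, at arbitrary heights) over a histogram of the differences of 9299 measured genes (grey, log axis of gene numbers), with dotted lines at 1.5-fold. Cyp2c38 at -0.91 lies in the sparse left tail, Cyp2c23 at 0.46 on the right shoulder, and the other 6 between -0.14 and 0.16.

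Other genes of the subfamily bear on how far the difference at Cyp2c38 extends. Of the 15 protein-coding Cyp2c genes annotated on chromosome 19, 11 have a probe set here and 4 were not analysed here. Cyp2c68, which follows Cyp2c38 and Cyp2c39 along the chromosome after Cyp2c67, read 13.3 in the Yap+/- pool and 13.2 in the Yap+/+ pool, a difference of 0.051. Cyp2c65 read 3.48 in the Yap+/- pool and 3.51 in the Yap+/+ pool, under the level called measured. On both sides, then, the nearest Cyp2c genes with a measured value, Cyp2c29 and Cyp2c68, were within 0.17 of no difference.

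**Figure D4:**
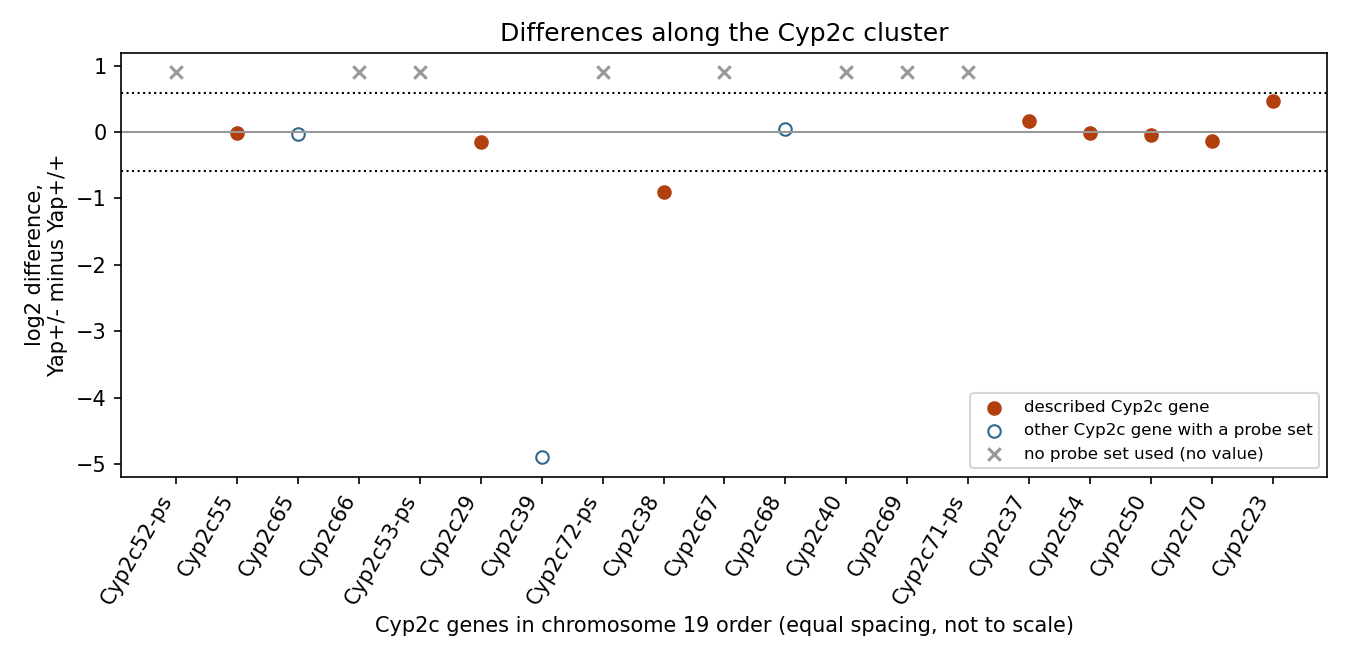
Log2 difference of each Cyp2c gene with a probe set, in chromosome 19 order at equal spacing, with members filled, other genes open and genes without a value crossed. Cyp2c39 at -4.90 and Cyp2c38 at -0.91 are the only points below the lower dotted line at 1.5-fold. Cyp2c29 and Cyp2c68, the nearest genes with a measured value on each side, lie near 0. Cyp2c67, drawn between Cyp2c38 and Cyp2c68, has no value.

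Genes that work with or control Cyp2c enzymes were counted in lists and read against the same background of 0.645% lower and 0.699% higher at 1.5-fold, with a median of 0.00. The 17 measured genes of the other Cyp2 subfamilies had 0 members past 1.5-fold in either direction and a median of -0.032, close to that of the Cyp2c genes. The furthest among them were Cyp2d9 at -0.42 and Cyp2b13 at 0.41. The reductase Por had no value here. The P450 partners with a value had 0 of 7 past the threshold and a median of -0.053. The highest of them, Alas1, which sets the rate of haem synthesis, read 9.70 in the Yap+/- pool and 9.14 in the Yap+/+ pool, a difference of 0.55, and its second probe set gave 0.60.

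The regulators had 1 of 20 lower and 1 of 20 higher at 1.5-fold, with a median of 0.069. The receptors that control Cyp2c induction differed in opposite directions. Nr1i3, the receptor CAR, read 9.15 in the Yap+/- pool and 9.57 in the Yap+/+ pool, a difference of -0.42. Nr1i2, the receptor PXR, read 7.73 in the Yap+/- pool and 7.28 in the Yap+/+ pool, a difference of 0.45, with 0.17 on its second probe set. Hnf4a was higher in Yap+/- on its 2 brightest probe sets, by 0.20 and 0.35, and lower on the dimmest measured one, by -0.28. Past the threshold were Nr0b2, the repressor SHP, at 0.84 and Onecut1, a transcription factor of hepatocytes and bile ducts, at -0.60. Nr5a2, also a regulator, was not counted, because its brightest probe set gave -0.14. Its next brightest gave -1.01 and the one after that -0.17. Of 15 measured CAR and PXR target genes outside the subfamily, 0 were past 1.5-fold, and their median was -0.058. Ephx1, an epoxide hydrolase, was at -0.50 and the exporter Abcc3 at -0.47, while Alas1 at 0.55 and the stress gene Gadd45b at 0.47 lay as far in the other direction. Cyp2b10, the classical CAR target, was at 0.15 and Cyp3a11, that of PXR, at -0.032.

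The enzymes that share fatty acid substrates or products with Cyp2c had 1 of 8 past the threshold, Cyp4a12a, which read 5.66 in the Yap+/- pool and 7.22 in the Yap+/+ pool. This gene reached the minimum of 6 only through the Yap+/+ pool, where it was high. The median of these 8 was -0.035, and Ephx2, which opens the epoxides, was at -0.11. In the bile acid pathway of Cyp2c70, 2 of 14 were lower by 1.5-fold and 0 higher, with a median of -0.15, near the -0.13 of Cyp2c70 itself. These were Cyp7a1, the first enzyme of the pathway, at -1.26 and Cyp8b1, which leads to cholic acid, at -0.61. Of 11 pericentral genes 10 were lower by sign, 1 of them, Lgr5, by 1.5-fold, and the median was -0.11. That median is within the 0.17 by which probe sets of the same gene disagree. Lgr5 read 5.76 in the Yap+/- pool and 6.39 in the Yap+/+ pool, so it too passed the minimum only through the Yap+/+ pool. Of 7 periportal genes 4 were lower by sign, and their median was -0.037. Among the pericentral genes Cyp1a2, a P450, was at -0.32 and Cyp2e1 at -0.032. Glul was at -0.014, with -0.098 on its second probe set. The share of all measured genes lower by sign was not counted, so the counts by sign of both lists have no background.

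**Figure D5:**
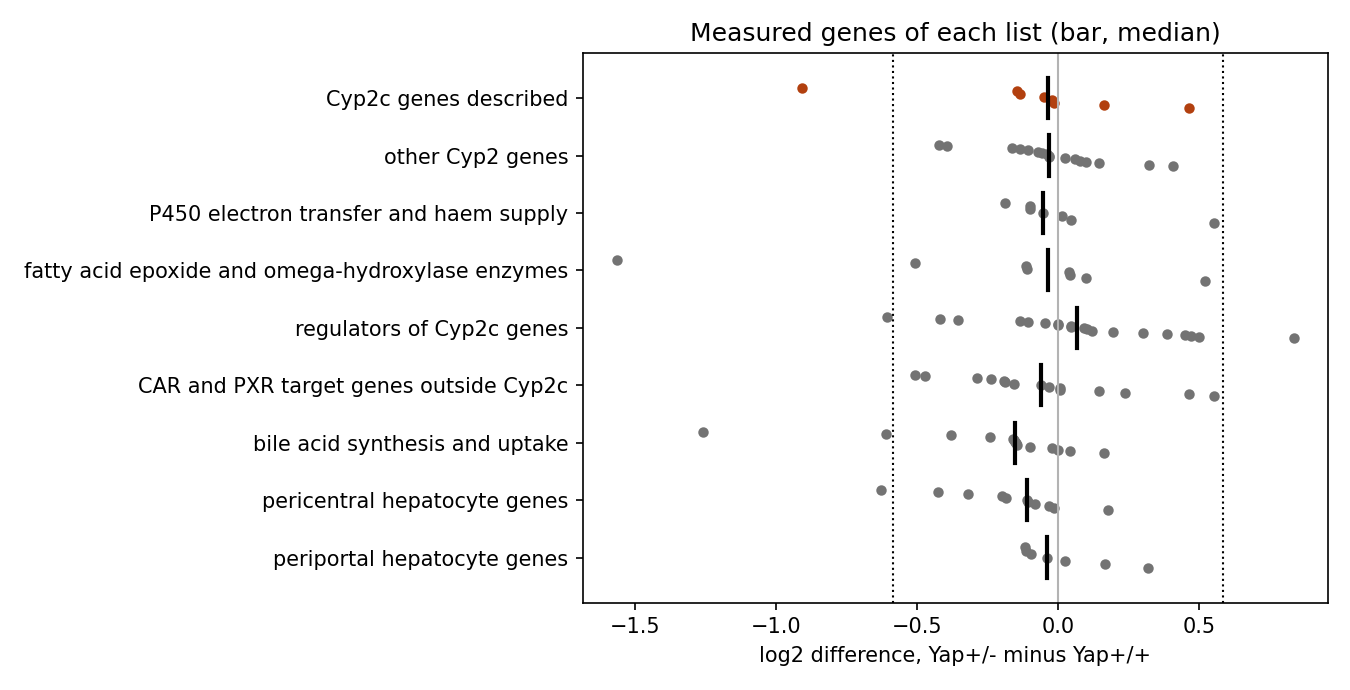
Log2 differences of the measured genes of each list (points, 1 per gene) with the list median (black bar), dotted lines at 1.5-fold and the Cyp2c genes in the top row. The medians lie between -0.15 for bile acid genes and 0.069 for regulators, and that of the Cyp2c genes is -0.035.

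Markers of cell types were read beside these values. Their counts by sign have no counted background, and the median over all measured genes was 0.00. The 8 measured hepatocyte markers had a median difference of 0.019 with 0 past 1.5-fold, and their summed signal was 17.3 on the log2 scale in both pools. The brightest of them, Alb, Ttr and Apoa1, lay near the highest value of the scale, 15.15. Signals can be compressed there, so a difference in the sum could be understated. All 9 Kupffer cell and macrophage markers were higher in Yap+/-, 1 of them by 1.5-fold, with a median of 0.35 and summed signals of 13.4 in the Yap+/- pool and 13.1 in the Yap+/+ pool. Of the sinusoidal endothelial markers 5 of 6 were higher, and the median was 0.20. Stellate cell markers had a median of -0.036 over 6. Of 6 bile duct markers only Muc1 was measured, through its Yap+/+ value of 7.19 against 5.51 in Yap+/-. The summed signals of all 6, with 5 of them under the minimum, were 7.65 in the Yap+/- pool and 8.56 in the Yap+/+ pool. Muc1 at -1.67 and Krt19 at -1.90 were far lower in Yap+/-, the other 4 lay between -0.15 and 0.26, and the median of the 6 was -0.15. Of 4 neutrophil markers only S100a9 was measured, through its Yap+/- value of 7.02 against 5.58 in Yap+/+, and the summed signals of all 4 were 7.94 in the Yap+/- pool and 6.84 in the Yap+/+ pool. The part of these cell types in the Cyp2c differences was not tested.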

How the data were processed

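Liver RNA of 2 pools, each of 5 mice, was measured on 1 array each. The authors deposited a log2 value per probe set, and the submitters' processing notes name RMA and Partek 6.5, without settings. Scanner files and detection calls were not used here. The sorted columns lay within 0.047 of each other, which is what quantile normalisation leaves. The number of arrays limits the precision.

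Probe sets with exactly 1 gene symbol in the platform annotation (34945) were kept, and the brightest stood for a gene. Genes with a mean of at least 6 were called measured. Differences are Yap+/- minus Yap+/+, and genes were counted at 1.5-fold. With 1 sample per genotype no test was made. The counting was tested on simulated data. Named are all 8 members, the other Cyp2c genes, Yap1 and up to 3 measured genes per direction and list. A few values outside this rule (Alb, Cyp3a11, Cyp2e1, Glul, Hnf4a, Nr1i2, Krt19 and, among CAR targets, Cyp2b10) were chosen for their role after their values were seen. Nr5a2 was added because its probe sets disagree. The members, lists and threshold were chosen with earlier results of these data known. Those results put the members under 2-fold, which is why 1.5-fold was used.

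Promoters and positions are RefSeq's on GRCm38.p6. Promoters were aligned globally with Biopython 1.88. Alternatives were the choice of probe set, median centring, lowess, quantile normalisation, 64 added on the linear scale, other filters and other thresholds. The lowess came from statsmodels 0.14.6, tables were handled in pandas 2.3.3 under Python 3.11.15, and plots were drawn with matplotlib 3.10.9.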

Additional observations from a re-analysis of the deposited data

How the results depend on the processing

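The count of members at least 1.5-fold lower in Yap+/- was 1 under the other normalisations, probe set choices and filters tried, and became 0 at thresholds of 2-fold and 3-fold, which follows from the value of Cyp2c38. The count higher stayed at 0. No member averaged below 8.84, so the other filters kept all 8 and could not change either count. The difference of Cyp2c38 ran from -0.91 to -0.84 and that of Cyp2c23 from 0.46 to 0.48, and the median of the members from -0.060 to -0.020. Only Cyp2c55 changed sign, in 1 setting, at 0.0022. With probe sets without a suffix Cyp2c23 drops out and 7 members remain. No member has a second probe set, so that alternative gave no value, and the mean of all probe sets equals the value reported. No paired analysis was possible because each genotype is 1 pool on 1 array, and no replicate could be left out. Signal over background is not known, since detection calls were not used here.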
